A study of Mus musculus with 2 samples.

Results

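Divergent promoters are stretches of DNA from which a pair of neighbouring genes is transcribed in opposite directions. Shared DNase I peaks at such promoters were examined in mouse calf muscle. A shared peak was a merged region in which a peak of each of the 2 libraries overlapped by at least 1 bp. It was counted as a divergent promoter peak when it overlapped the span between the 5′ ends of 2 protein-coding genes that lie head to head on opposite strands at most 1 kb apart, extended by 200 bp either side. The GENCODE annotation of mm10 (release M21) held 754 such pairs at 733 separate loci. They took in 1487 of its 21938 protein-coding genes, or 6.78%. Of the 49160 shared peaks, 841 (1.71%) were divergent promoter peaks, and they lay at 686 of the 733 loci. They were set against 10157 shared peaks at the 200 bp either side of 20443 protein-coding 5′ ends outside any pair, called single promoters here.

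The assay was DNase-seq. Open chromatin is cut by the enzyme DNase I, and the ends of the fragments are read by sequencing. The tissue was the gastrocnemius, the large calf muscle, of B6CASTF1/J females aged 2 months, first-generation hybrids of C57BL/6J with CAST/EiJ. The 1 group held 2 libraries, numbered as biological replicates 1 and 2, and the labels name no treatment and no other genotype. The labels number the females differently but give both libraries 1 donor identifier, so whether these are separate animals is not settled and the spread between the libraries may be technical. Replicate 1 had 66984 peaks and 153010 footprints, and replicate 2 had 258342 peaks and 338761 footprints. Sequencing depth is unknown. As a check of the tissue, both libraries had a peak near a start (within 1 kb) for 8 of 8 skeletal muscle marker genes, against 0 of 5 for hepatocytes, 2 of 4 for neurons and 2 of 4 for keratinocytes.

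As background, divergent pairs are common in mammalian genomes and are known for housekeeping genes, such as those of DNA repair, the mitochondrion and chromatin. Their shared promoter is typically rich in CpG dinucleotides and seldom has a TATA box, and each direction is thought to have its own start site at an edge of a nucleosome-depleted stretch. Factors that bind close to the start, such as NF-Y at the CCAAT box, NRF1, the ETS family, YY1, ZNF143 and BANP, are known from such promoters.

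The spans of 10 named pairs are shown because they differ in footprints between the starts. Some spans have footprints of both libraries over several CCAAT boxes. Others have few or no bases inside a footprint of both libraries. Each line runs 5′ to 3′ on the plus strand from the 5′ end of the minus-strand gene (left) to that of the plus-strand gene (right), in the RefSeq GRCm38.p6 genome, and capitals mark bases inside a footprint of both libraries. Footprints are short stretches within open DNA where cuts are depleted. The spans are chr15:76351111-76351294, chr16:22857669-22857845, chr15:12824649-12824815, chr7:28741820-28741992, chr17:15499751-15499888, chr4:116807640-116807723, chr11:101551955-101552149, chr9:50603812-50603910, chr5:30155162-30155248 and chr1:82586849-82586921, in the order of the lines. The reference is C57BL/6J, so the CAST/EiJ copy of each span in these hybrids may differ from what is printed.
Sharpin/Maf1: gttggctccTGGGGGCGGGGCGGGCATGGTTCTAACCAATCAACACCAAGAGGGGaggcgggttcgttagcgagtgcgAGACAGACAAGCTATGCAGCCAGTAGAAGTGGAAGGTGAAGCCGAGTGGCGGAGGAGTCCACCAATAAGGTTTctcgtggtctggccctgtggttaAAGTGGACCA
Tbccd1/Dnajb11: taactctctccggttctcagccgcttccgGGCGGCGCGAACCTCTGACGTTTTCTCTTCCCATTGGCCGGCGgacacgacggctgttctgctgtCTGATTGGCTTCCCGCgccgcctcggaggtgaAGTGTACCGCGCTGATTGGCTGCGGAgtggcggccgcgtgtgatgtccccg
6030458C11Rik/Drosha: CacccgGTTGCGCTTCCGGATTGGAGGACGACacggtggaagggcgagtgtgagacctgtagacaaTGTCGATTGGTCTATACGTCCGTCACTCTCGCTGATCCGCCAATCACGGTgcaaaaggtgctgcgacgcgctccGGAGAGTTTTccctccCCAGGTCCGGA
Mrps12/Sars2: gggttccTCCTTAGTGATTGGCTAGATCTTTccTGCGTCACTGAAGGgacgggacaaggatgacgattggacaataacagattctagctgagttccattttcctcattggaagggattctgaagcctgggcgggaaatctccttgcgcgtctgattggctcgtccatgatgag
Psmb1/Tbp: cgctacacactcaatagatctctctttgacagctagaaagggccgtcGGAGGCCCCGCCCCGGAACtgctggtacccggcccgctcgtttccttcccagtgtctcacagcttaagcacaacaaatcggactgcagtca
Toe1/Mutyh: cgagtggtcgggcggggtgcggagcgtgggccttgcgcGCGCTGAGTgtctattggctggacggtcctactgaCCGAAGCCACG
Brca1/Nbr1: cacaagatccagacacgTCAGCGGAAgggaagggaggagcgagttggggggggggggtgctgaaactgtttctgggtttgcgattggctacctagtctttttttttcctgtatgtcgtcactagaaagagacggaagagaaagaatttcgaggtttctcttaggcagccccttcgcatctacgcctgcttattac
Sdhd/Timm8b: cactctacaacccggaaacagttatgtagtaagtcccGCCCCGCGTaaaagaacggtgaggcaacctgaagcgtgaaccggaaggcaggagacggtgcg
Hadha/Hadhb: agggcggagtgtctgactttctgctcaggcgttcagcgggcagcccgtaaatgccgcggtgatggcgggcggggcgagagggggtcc
Col4a4/Col4a3: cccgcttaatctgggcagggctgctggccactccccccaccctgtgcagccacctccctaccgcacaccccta

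The first of these spans held the strongest divergent promoter peak by mean rank. Sharpin, a subunit of a ligase that builds linear ubiquitin chains, faces Maf1, a repressor of RNA polymerase III, at 183 bp. Of the 184 bases, 129 lay in a footprint of both libraries. Both of its 2 CCAAT pentamers (CCAAT or its complement ATTGG), 2 of 2, touched such a footprint. Between Tbccd1 and Dnajb11, which encodes a co-chaperone of the endoplasmic reticulum, 85 of 177 bases lay in a footprint of both libraries, and 3 of 3 CCAAT pentamers were touched. Between 6030458C11Rik and Drosha, the nuclease that starts microRNA processing, 98 of 167 bases and again 3 of 3 pentamers were covered. Between Mrps12 and Sars2, which encode a mitochondrial ribosomal protein and the mitochondrial seryl-tRNA synthetase, 38 of 173 bases were covered, and 1 of 4 CCAAT pentamers was touched. The stretch between Psmb1, a proteasome subunit, and Tbp, the TATA-binding protein, had 19 such bases of 138, in 1 run that includes an SP/KLF motif (GGGGCGGG). The span between Brca1 and Nbr1 had 9 such bases of 195, and that between Toe1 and Mutyh had 20 of 84, with none of them over the 1 CCAAT pentamer that each of these spans holds. The span between Sdhd and Timm8b had 9 such bases of 99, and those of Hadha/Hadhb and Col4a4/Col4a3 had none. These last 3 spans hold no CCAAT pentamer, nor does that of Psmb1/Tbp, whose peak ranked at percentiles 96.9 and 99.2. The whole shared peak, which reaches beyond the span, held 6 footprints in replicate 1 and 9 in replicate 2 at Hadha/Hadhb. At Col4a4/Col4a3 it held 4 and 6.

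Nearly all divergent promoters were open in this muscle. A shared peak was present at 686 of 733 loci (93.6%, exact Clopper-Pearson 95% interval 91.6 to 95.3), against 47.9% of single promoters (9800 of 20443, interval 47.3 to 48.6). The difference was 45.6 percentage points over shared peaks. Within each library's own list it was 45.2 points in replicate 1 and 38.7 points in replicate 2. The units are unlike. The window of a locus takes in at least 2 starts and the span between them, against 1 start for a single promoter. A locus thus had more bases in which a peak could lie, and the part of this in the difference was not tested. Of the loci, 545 had 1 shared peak, 127 had 2 and 14 had 3. Of the 47 loci without one, 13 had a peak in replicate 2 only, 1 had peaks of both libraries that did not overlap, and 33 had no listed peak in either library. Intervals cover counting error only. In bulk tissue, fewer cells of a type and less accessibility per cell cannot be told apart.

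Base composition differed between the groups along with openness. CpG-rich promoters (CpG observed over expected of at least 0.6 and GC of at least 50% in 500 bp either side) made up 83.1% of divergent loci and 41.6% of single promoters. Among CpG-rich promoters a shared peak was found at 598 of 609 divergent loci (98.2%), against 85.9% of single promoters (7308 of 8512). Among the others it was found at 88 of 124 divergent loci (71.0%, interval 62.1 to 78.8) and at 2492 of 11931 single promoters (20.9%, interval 20.2 to 21.6). The gap between divergent and single promoters was thus 12.3 points in the CpG-rich class, where at most 14.1 points were possible, and 50.1 points in the other class, against 45.6 points over all promoters. The part of base composition in the gap was not tested.

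Single promoters that also face another start lay between the groups. Of those with a head-to-head noncoding gene start within 1 kb, 540 of 689 (78.4%) had a shared peak. Of those whose 5′ end overlaps that of an opposite protein-coding gene within 1 kb, 688 of 887 (77.6%) had one. There were 457 such overlapping pairs, which fall outside the rule because their starts do not leave a span between them. Single promoters with neither kind of partner had a shared peak in 45.4% of cases (8575 of 18870).

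At every distance between the starts most pairs were open. Spacing over the 733 loci had a median of 128 bp (quartiles 67 and 238, range 1 to 987). A shared peak was present at 96.7% of 305 loci spaced by up to 100 bp and at 91.5% of those spaced by over 100 to 200 bp. It was present at 92.6% of 94 loci at over 200 to 300 bp and at 96.9% of 65 at over 300 to 500 bp. Over 500 bp it was present at 83.8% of 68 loci, with an interval of 72.9 to 91.6 that overlaps those of the 3 classes between 100 and 500 bp. At the limit of the rule, 13 of 16 pairs spaced by over 800 bp had a shared peak, and 16 of 20 pairs just outside, at over 1000 to 1200 bp. Their shared peaks had median percentiles of signal in replicate 1 of 85.1 just inside and 83.7 just outside. Of the 841 peaks, 743 overlapped the span itself, with a median percentile of 92.2 in replicate 1, and 98 reached only the 200 bp extension, with 80.3. The 109 shared peaks lying 200 to 400 bp beyond the span had 72.8.

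**Figure D1:**
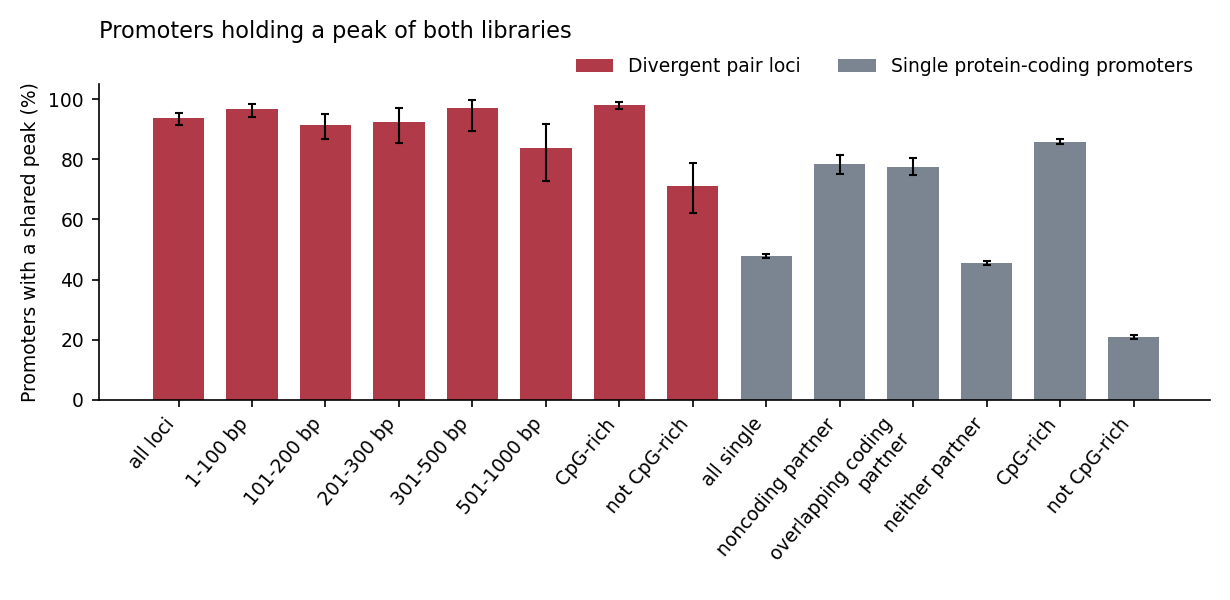
Share of promoters with a shared peak (%, bars) for divergent pair loci (red), by spacing between the starts and by base composition, and for single protein-coding promoters (grey), by partner and by base composition. Error bars are exact 95% intervals. Divergent loci stood at 93.6% and single promoters at 47.9%, while CpG-rich promoters stood at 98.2% and 85.9%.

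Divergent promoter peaks had more signal than other promoter peaks. The deposited signal, whose scale is not stated, was read within each library only, as the strongest peak of the library in the shared peak. In replicate 1 the median was 3.11 at divergent promoters (quartiles 1.89 and 5.18), against 2.14 at other promoters (1.136 and 3.86). In replicate 2 it was 6.77 at divergent promoters (quartiles 3.75 and 12.7), against 4.65 at other promoters (2.24 and 8.97). The ratio of medians, divergent over other, was 1.45 ± 0.00325 (SD, n = 2 libraries). The quartiles of both groups overlap widely in both libraries. With 2 libraries an exact two-sided sign-flip permutation test cannot give a p below 0.5, so the comparison is a description.

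The ranks gave the same direction. Ranked within the library's own list, the median percentile was 91.4 at divergent promoters and 85.5 at other promoters in replicate 1, and 97.8 and 96.4 in replicate 2. The mean difference was 3.62 ± 3.23 points (SD, n = 2), and it was larger in replicate 1, which has the shorter list. Of the 841 divergent promoter peaks, 280 (33.3%) lay at or above percentile 95 in both libraries, against 21.1% of other promoter peaks. Replicate 1 alone gave the same shares, so asking for both libraries took nothing away. In replicate 2 alone the shares were 78.6% and 61.1%. In CpG-rich promoters alone the median signal was 3.29 and 2.53 in replicate 1, divergent before other, and 7.09 and 5.46 in replicate 2. At divergent promoters the signal of the 2 libraries went together over peaks (Spearman's rho 0.965 over 841 peaks, which share 2 libraries and are not independent). At other promoter peaks rho was nearly the same, at 0.960.

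Other promoter peaks with a head-to-head noncoding start were close to the divergent ones. Their 580 peaks had a median signal of 2.96 in replicate 1 and 6.56 in replicate 2. The 526 peaks of single promoters with an overlapping coding partner had 2.55 and 5.67. The 9052 peaks at single promoters with neither partner had 2.08 and 4.49.

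**Figure D2:**
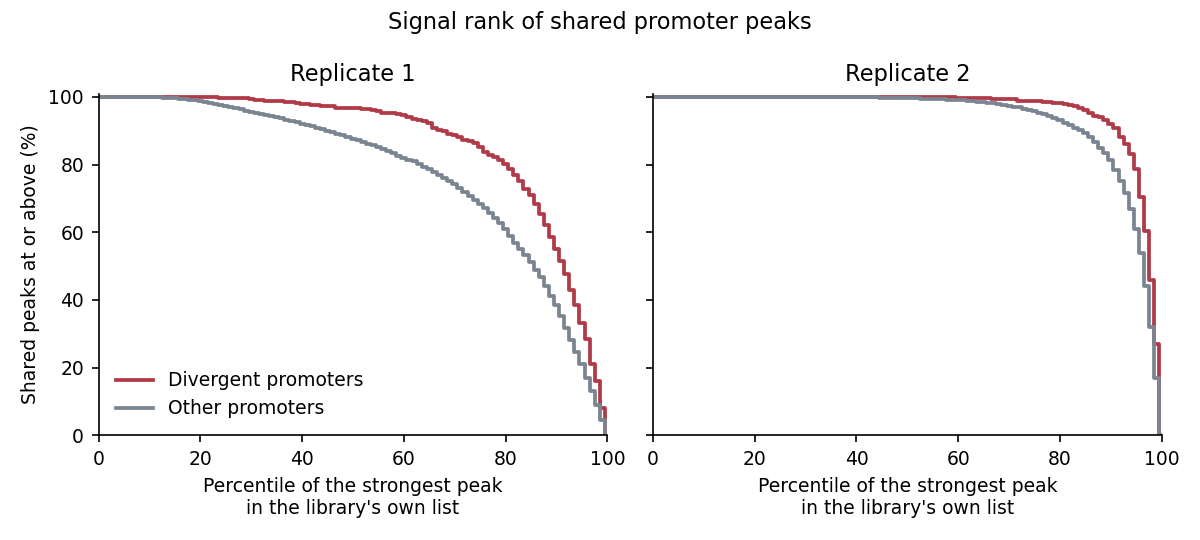
Share of shared peaks (%, y axis) at or above each percentile of signal in the library's own list (x axis), at divergent promoters (red) and other promoters (grey), for each replicate. Divergent promoters lie above other promoters along most of the axis, with medians of 91.4 and 85.5 in replicate 1 and of 97.8 and 96.4 in replicate 2.

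Peaks at divergent promoters did not differ in median width. The bases of a shared peak covered by the library's own peaks had a median of 260 bp at divergent promoters and 260 bp at other promoters in replicate 1, and of 220 bp and 220 bp in replicate 2. The merged width had a median of 280 bp at divergent promoters (quartiles 240 and 360) and of 280 bp at other promoters (quartiles 240 and 380). Segments with a false discovery rate of the cut rate under 0.05, from a further deposited file, covered more bases at divergent loci. In the 1000 bp around the centre of divergent loci with a shared peak they covered a median of 846 bp in replicate 1 and 893.5 bp in replicate 2. Around the starts of single promoters with a shared peak they covered 682 bp in replicate 1 and 754 bp in replicate 2. The upper quartile at divergent loci in replicate 2 was the full 1000 bp, so this window cuts off the widest segments. The windows are unlike, centred between the starts at divergent loci and on the start at single promoters. Promoters of like signal were not compared here.

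How the peaks lay over the starts went with the distance between them. At 521 of 686 loci with a shared peak (75.9%) both starts were covered by shared peaks, at 142 (20.7%) only 1 was, and at 23 (3.35%) neither was. A single shared peak covered both starts at 457 loci (66.6%). By spacing class, from up to 100 bp to over 500 bp, that share was 94.2%, 73.9%, 41.4%, 11.1% and 0%. The share of loci with several shared peaks was 7.80%, 14.1%, 27.6%, 52.4% and 61.4% over the same classes.

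In some of the wider pairs each start had a peak of its own. At a spacing of over 300 to 500 bp, the position next to the centre lay in a peak at 50.8% of loci in replicate 1, against up to 77.8% nearer the starts. Over 500 bp these values were 19.3% and 63.2%. Of the 133 loci wider than 300 bp, 49 had a separate shared peak over each start. The stronger of these peaks had a median of 1.77 times the signal of the weaker in replicate 1 (quartiles 1.28 and 2.87) and 1.83 times in replicate 2 (quartiles 1.41 and 3.12). The same start had the stronger peak in both libraries at 44 of 49 loci, at 4 it was the other start in replicate 2, and at 1 the peaks tied in replicate 1. The least even pair in replicate 1 was Rgs9bp/Ankrd27, 662 bp apart, where the peak at the Ankrd27 start had 9.23 times the signal of the one at Rgs9bp in replicate 1 and 8.70 times in replicate 2. It was chosen after its values were seen.

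**Figure D3:**
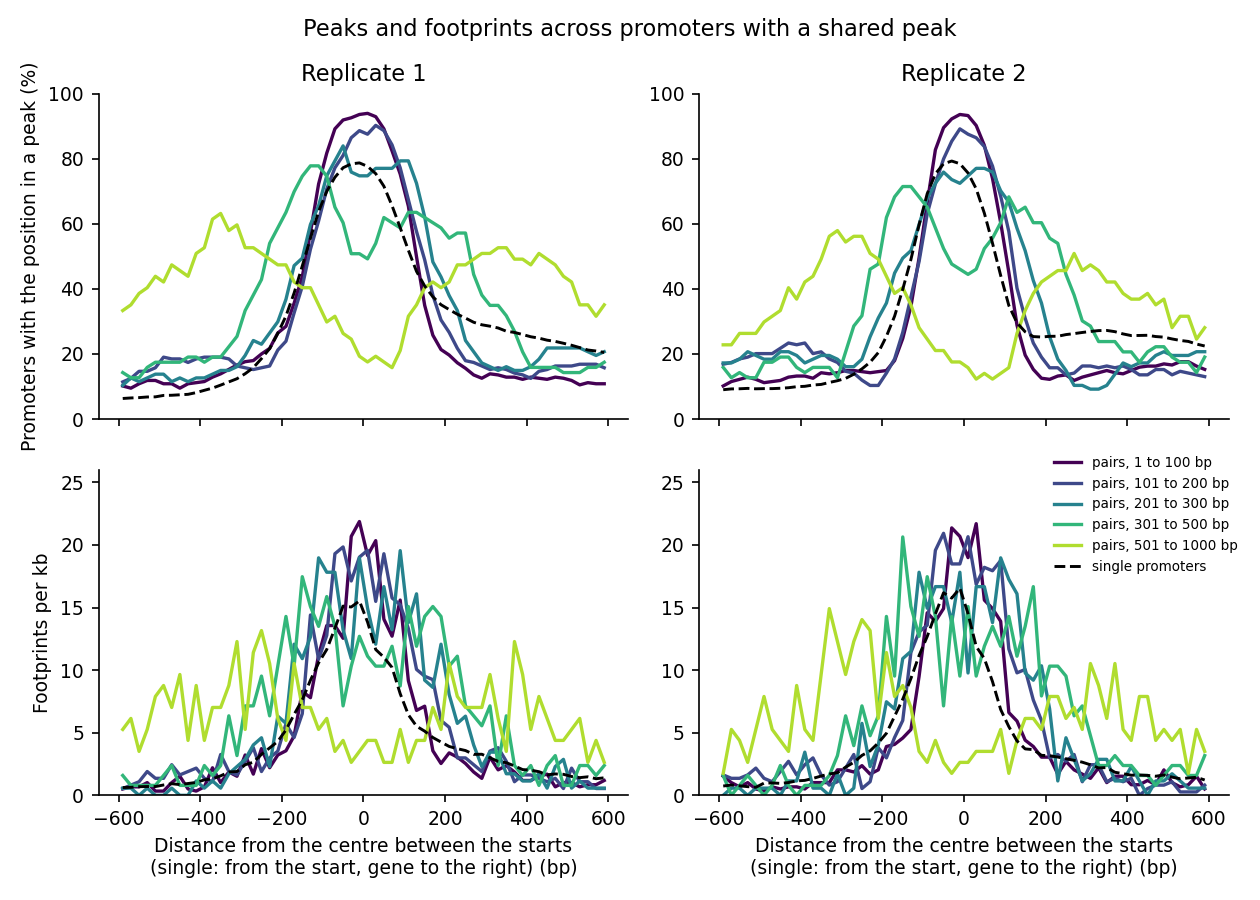
Top panels, share of promoters with a shared peak at which a position lies in a peak of the library (%). Bottom panels, footprints per kb. The x axis is the distance in bp from the centre between the starts of divergent pairs, in 5 spacing classes (coloured lines), or from the start of single promoters (dashed, gene to the right), in 20 bp bins. Lines are shares and densities over all promoters of a class. In the 2 classes over 300 bp there are 2 humps, with 50.8% and 19.3% of loci in a peak next to the centre in replicate 1.

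Footprints were denser at divergent promoters over all peaks, but mostly not within a class of like signal. Footprints with their midpoint in the shared peak had a median of 15.0 per kb at divergent promoters and 12.9 per kb at other promoters in replicate 1. In replicate 2 they had 14.7 per kb at divergent promoters and 13.2 per kb at other promoters. The difference was 1.83 ± 0.403 per kb (SD, n = 2). It was 2.78 per kb over the peaks of replicate 2 alone, without replicate 1, and 1.099 per kb with the shorter peak lists. Within quintiles of the signal of all promoter peaks, the difference was small or went the other way. In replicate 1 the median of divergent promoters was below that of other promoters in every quintile, at 5.85 and 6.41 per kb in the weakest quintile and 18.2 and 18.8 per kb in the strongest. In replicate 2 it was 3.11 per kb at divergent promoters and 6.85 per kb at other promoters in the weakest quintile, and 16.7 and 15.9 per kb in quintile 4, the 1 quintile in which divergent promoters were higher. The strongest quintile held 30.9% of divergent and 19.1% of other promoter peaks in replicate 1. Peaks with no footprint made up 5.23% of divergent and 5.61% of other promoter peaks in replicate 1, and 6.30% and 5.64% in replicate 2.

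**Figure D4:**
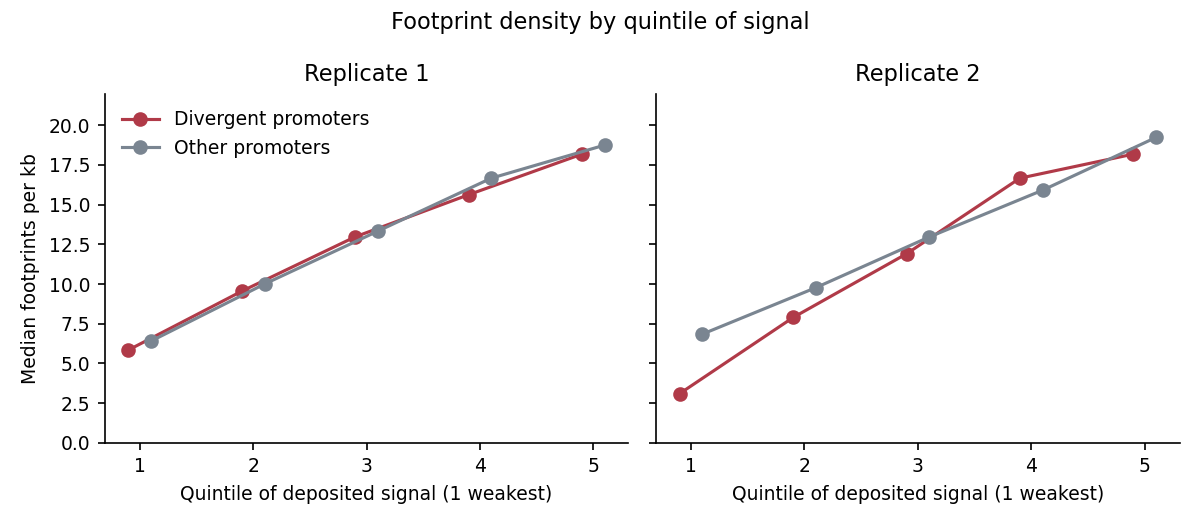
Median footprints per kb of shared peak (y axis) by quintile of the deposited signal over all promoter peaks (x axis, 1 weakest), at divergent promoters (red) and other promoters (grey), for each replicate. Density rises with the quintile in both groups, and in replicate 1 divergent promoters lie below other promoters in every quintile.

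Footprints lay between the starts more than inside the genes. Over the 686 loci with a shared peak, the stretch between the starts had 13.7 footprints per kb in replicate 1 and 14.1 in replicate 2. The first 200 bp of the genes had 7.85 and 7.18 per kb. At single promoters with a shared peak, the 200 bp before the start had 10.9 and 11.5 footprints per kb and the first 200 bp of the gene had 8.11 and 7.39. These stretches are unlike, since a narrow span holds only positions close to both starts. In the 20 bp bin just before the start, single promoters had 15.5 footprints per kb in replicate 1 and 16.5 in replicate 2. The density between the starts was highest in the narrowest spans, at 21.3 and 22.2 per kb for a spacing of up to 100 bp, and lowest in the widest, at 6.93 and 7.06 per kb over 500 bp.

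Several motifs known from CpG-rich promoters were more frequent at divergent promoters. Motifs were sought as exact letters, on both strands, in the 300 bp around the middle of each shared peak, and a match is no evidence of binding. Around all 21938 protein-coding 5′ ends the shares were 1.34% for BANP, 3.25% for ZNF143, 3.51% for YY1, 4.86% for ETS and 15.0% for NF-Y. The BANP motif TCTCGCGA occurred in 4.28% of divergent promoter peaks (interval 3.02 to 5.88), against 2.16% of other promoter peaks (interval 1.88 to 2.46). ZNF143 (ACTACAA) had 5.95% at divergent and 3.505% at other promoters, YY1 (AAGATGGC) had 8.32% and 5.05%, and the ETS motif CCGGAAGT had 12.4% and 8.24%. NF-Y (CCAATNNG) had 24.0% at divergent promoters (interval 21.2 to 27.1), against 19.3% at other promoters (interval 18.5 to 20.05). For these 5 motifs the intervals did not overlap, and peaks are not independent samples. In CpG-rich promoters alone the 5 ratios, divergent over other, were 1.68 for BANP, 1.56 for ZNF143, 1.55 for YY1, 1.35 for ETS and 1.27 for NF-Y. There the ZNF143 intervals overlapped, at 3.74 to 7.13 for divergent and 2.97 to 3.79 for other promoters.

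Other motifs differed less or the other way. NRF1 (GCATGCGC) stood at 6.30% of divergent and 5.34% of other promoter peaks, and SP/KLF at 32.7% and 33.6%, with intervals that overlap. The E-box CAGCTG, a sequence bound by the muscle factor MyoD among others, was in 12.7% of divergent promoter peaks (interval 10.5 to 15.2) and 17.8% of other promoter peaks (interval 17.0 to 18.5). The MEF2 letters TAAAAATA, known from muscle genes, were in 0 of 841 divergent promoter peaks, which allows a share of up to 0.357% (3 counts), and in 62 of 10157 other promoter peaks (0.610%). In CpG-rich promoters alone they were in 0 of 724 and 37 of 7614 peaks, with intervals that overlap. TATAAA stood at 2.97% and 3.65%, CREB/ATF (TGACGTCA) at 4.16% and 3.44%, the E-box CACGTG at 10.8% and 10.9%, AP-1 (TGANTCA) at 2.73% and 3.20% and CTCF (CCACNAGG) at 4.88% and 5.69%, divergent before other, with overlapping intervals.

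Sites of some motifs lay in footprints in most cases. At divergent promoters 84.1% of 88 NRF1 sites overlapped a footprint in replicate 1 and 81.8% in replicate 2, against 26.1% and 34.7% for the same positions moved by 50 bp. For BANP it was 79.4% and 74.6% of 63 sites, against 35.7% and 31.7% when moved, and for CREB/ATF 94.6% and 91.9% of 37 sites, against 28.4% and 36.5%. SP/KLF sites were covered more often at divergent than at other promoters, at 66.5% (interval 61.5 to 71.2) and 55.6% (interval 54.2 to 57.0) in replicate 1 and 68.9% and 60.4% in replicate 2. Moved SP/KLF positions also stood higher at divergent promoters, at 30.9% and 27.7% in replicate 1 and 35.2% and 29.2% in replicate 2. These sites were not compared within classes of like signal. NF-Y sites stood at 62.4% of 266 at divergent promoters and 62.5% of 2437 at other promoters in replicate 1. At divergent promoters moved NF-Y positions stood higher than those of the motifs above, at 41.4% in replicate 1 and 47.9% in replicate 2. Most ETS, YY1 and ZNF143 sites there lay outside footprints. ETS had 44.8% and 48.3% of 116 sites (26.7% and 37.9% when moved). YY1 had 37.8% and 43.2% of 74 (23.0% and 23.6%), and ZNF143 had 38.2% and 34.5% of 55 (22.7% and 25.5%). At divergent promoters the E-box CAGCTG stood at 24.2% and 19.2% of 120 sites, near the 26.7% and 22.9% of moved positions.

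Signal rank went up with the number of CCAAT boxes. Counting the pentamer in the same 300 bp windows, a count added after the sequences above had been seen, 477 of the 841 divergent promoter peaks had 0, 206 had 1, 82 had 2 and 76 had 3 or more. Their median percentiles in replicate 1 were 88.1, 93.7, 97.5 and 98.8, in that order, and in replicate 2 they were 96.8, 98.5, 99.4 and 99.7. Other promoter peaks showed the same order, at 81.2, 89.0, 95.8 and 98.5 in replicate 1. Among CpG-rich promoters with 3 or more pentamers the median percentile in replicate 1 was 98.8 at divergent promoters and 98.9 at other promoters. Windows with 3 or more pentamers made up 9.04% of divergent promoter peaks (interval 7.19 to 11.2) and 4.95% of other promoter peaks (interval 4.54 to 5.39). Windows with exactly 2 made up 9.75% and 9.24%, with overlapping intervals. Of the motifs searched, NF-Y had the widest gap in rank within divergent promoters. Its letters contain the CCAAT pentamer, so this is not separate from the count above. The median percentile was 97.1 in 202 peaks with its motif and 89.2 in 639 without in replicate 1, and 99.3 and 97.2 in replicate 2.

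**Figure D5:**
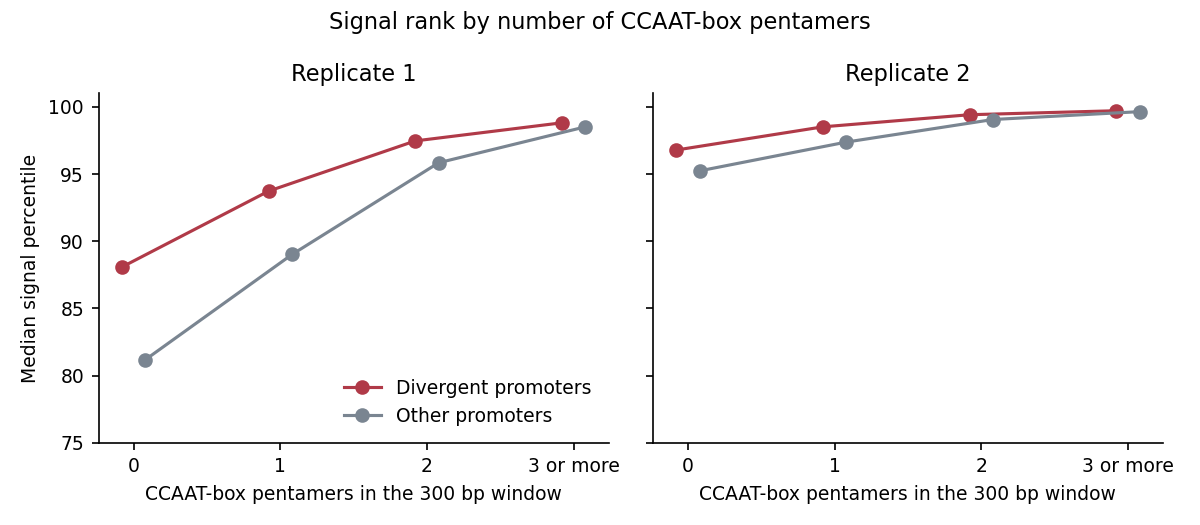
Median percentile of signal in the library's own list (y axis, drawn from 75) by number of CCAAT or ATTGG pentamers in the 300 bp around the middle of the shared peak (x axis), at divergent promoters (red) and other promoters (grey), for each replicate. In replicate 1 divergent promoters go from 88.1 with 0 pentamers to 98.8 with 3 or more, and other promoters from 81.2 to 98.5.

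The 5 strongest divergent promoter peaks by mean rank included those of Hsp90b1 and Dnajb11, of the chaperone class. Over the 12 chaperone loci the median percentile was 94.2 in replicate 1 and 98.0 in replicate 2. These values are near the 93.1 and 98.2 of all divergent loci with a shared peak. At Sharpin/Maf1 the signal reached 30.6 in replicate 1 (percentile 99.9985) and 84.6 in replicate 2 (percentile 99.9996). Hsp90b1, a chaperone of the endoplasmic reticulum, faces Ttc41 at 302 bp, with a signal of 22.8 and 74.9. At Tom1l2/Drc3, which encode an endosomal sorting protein and a subunit of the dynein regulatory complex of cilia, the values were 17.6 and 58.4. They were 17.5 and 48.9 at Tbccd1/Dnajb11, and 15.1 and 55.4 at 6030458C11Rik/Drosha. These 5 pairs are spaced by 166 to 424 bp. The best of the other spacing classes were Cdca2/Kctd9 at 96 bp (signal 16.1 and 38.2), Xrcc3/Zfyve21 at 297 bp (14.7 and 47.8) and Prr11/Ska2 at 526 bp (15.0 and 30.1). Rounded, the percentile of all 8 of these pairs was 99.9 or more in both libraries.

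The longest and the most footprinted peaks were other pairs. At Ddx5/Cep95, where the RNA helicase gene Ddx5 starts 67 bp from Cep95, 1 shared peak of 1020 bp was covered over 1020 bp in replicate 1 and 800 bp in replicate 2. It held 16 footprints in replicate 1 and 14 in replicate 2, the most by mean of all 841. Ap3m1/Adk, with a gene for adenosine kinase, had 1120 bp and 700 bp of open length, and a peak at Fbxo9/Ick had 740 bp and 940 bp. The Fbxo9/Ick peak lay on the Fbxo9 side and reached only the 200 bp extension of the span. Hnrnpa2b1/Cbx3, genes for an RNA-binding protein and a heterochromatin protein, had 16 and 11 footprints in 1 peak over a spacing of 466 bp. Aldh6a1/Lin52, genes for an enzyme of valine breakdown and a subunit of a cell cycle repressor complex, had 12 in each library. The weakest divergent promoter peaks by mean rank were at Lrrc63/Lcp1 (percentiles 20.3 and 59.98), Sox6/1110004F10Rik (23.1 and 62.1) and Wrn/Purg (32.4 and 57.6). The peaks at Lrrc63/Lcp1 and Wrn/Purg are each the weaker of 2 at their locus. The Lrrc63/Lcp1 peak lay on the Lrrc63 side and also reached only the extension.

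Of 23 textbook divergent pairs, 11 met the rule, and 11 of 11 had a shared peak, a share near the 93.6% of all divergent loci. The other 12 did not meet it. Each value is that of the strongest shared peak of the locus, not of both starts. Gart/Son was the strongest, with a signal of 8.81 in replicate 1 and 26.3 in replicate 2. This peak, 1 of 2 at the locus, lay on the Son side and reached only the extension of the span. Gart is an enzyme of purine synthesis and Son a splicing factor. Atm, a kinase of the DNA damage response, and Npat, a regulator of histone genes, had 8.59 and 19.8. Mcm4, of the replicative helicase, and Prkdc, of DNA end joining, had 7.25 and 21.8. That peak lay over the Mcm4 start, and the peak over the Prkdc start had 2.48 and 5.61. At Pdcd10/Serpini1 the peak over the Pdcd10 start had 6.16 and 12.7, and the peak over the Serpini1 start had 2.15 and 5.41. The values were 5.71 and 13.5 at Mrps12/Sars2, 5.50 and 12.9 at Psmb1/Tbp and 4.09 and 12.4 at Toe1/Mutyh, where Mutyh encodes a DNA glycosylase. Brca1/Nbr1, where Brca1 acts in DNA repair and Nbr1 in autophagy, had 2.65 and 4.19, Sdhd/Timm8b, of succinate dehydrogenase and the mitochondrial import chaperones, 2.62 and 5.07, and Hadha/Hadhb, the subunits of the mitochondrial trifunctional protein of fatty acid oxidation, 2.11 and 4.69. Col4a4/Col4a3, collagens of the glomerular basement membrane in the kidney, were the weakest of the 11 at 0.603 and 0.958, at percentiles 39.6 and 80.9.

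Genes of DNA repair, the mitochondrial ribosome and oxidative phosphorylation lay in pairs more often than protein-coding genes as a whole. Of 76 DNA repair genes, 26 lay in a pair (34.2%, interval 23.7 to 46.0), against 6.78% of all protein-coding genes, and 25 of the 26 loci had a shared peak, near the 93.6% of all divergent loci. Outside pairs 39 of 50 DNA repair genes had one (78.0%). The percentiles of the paired loci ran from 41.1 at Rad51c/Tex14 to 99.9 at Xrcc3/Zfyve21 in replicate 1, with a median of 94.6. Of 78 mitochondrial ribosomal protein genes, 18 lay in a pair (23.1%, interval 14.3 to 34.0), and 18 of 18 had a shared peak, as did 51 of the 60 outside pairs (85.0%), with a median percentile of 94.3 in replicate 1. Of 86 genes of oxidative phosphorylation, 19 lay in a pair (22.1%, interval 13.9 to 32.3), and 18 of the 19 loci had a shared peak, as did 57 of the 67 outside pairs (85.1%). Of 77 chaperone genes 12 lay in a pair (15.6%, interval 8.32 to 25.6). The intervals of 3 further classes included the 6.78%, with 6 of 39 proteasome genes (15.4%, interval 5.86 to 30.5), 5 of 36 tRNA synthetase genes (13.9%, interval 4.67 to 29.5) and 8 of 83 cytosolic ribosomal protein genes (9.64%, interval 4.25 to 18.1). For solute carriers it was 16 of 361 (interval 2.55 to 7.10) and for Zfp zinc finger genes 20 of 391 (interval 3.15 to 7.79). These intervals too included the 6.78%. No pair held any of 1135 olfactory receptor, 53 keratin or 22 circadian clock genes. The interval reached 0.324% for olfactory receptors and 6.72% for keratins. For the clock genes it reached 15.4% and included the 6.78%. Class examples outside the naming rule were chosen after their values were seen.

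Histone pairs had lower ranks. Of 67 replication-dependent histone genes, whose transcription peaks in S phase, 27 lay in a pair (40.3%). Of 13 pairs with such a gene on both sides, 10 had a shared peak and 3 had no listed peak, namely Hist1h2bq/Hist1h2ao, Hist1h2ap/Hist1h2br and Hist1h2ba/Hist1h2aa. Over the 11 histone loci with a shared peak, percentiles ran from 43.4 to 90.3 in replicate 1 (median 73.1) and from 71.8 to 97.5 in replicate 2 (median 92.5), against medians of 93.1 and 98.2 over all 686 divergent loci, each taken at its strongest peak. The coding sequences of these genes are near-identical copies, so peaks there are uncertain where reads could not be placed uniquely.

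Of 62 genes of the muscle class, 3 lay in a pair (4.84%, interval 1.01 to 13.5), a share near the 6.78% of all protein-coding genes. Mylpf, the fast skeletal regulatory light chain of myosin, faces Tbc1d10b at 422 bp, with 3 shared peaks. The peak over the Mylpf start had a signal of 5.77 in replicate 1 and 13.5 in replicate 2, and the peak next to the Tbc1d10b start had 3.14 and 4.85. Actn3, the alpha-actinin of fast fibres, faces Zdhhc24 at 759 bp, with 2 shared peaks. The peak over the Actn3 start had 3.21 and 3.70, below the 7.71 and 17.9 of the peak over the Zdhhc24 start. The gene record of Ckm, muscle creatine kinase, begins 672 bp from Klc3, and this window had a peak in replicate 2 only, of signal 0.801. The first protein-coding transcript of Ckm starts 6249 bp farther into the gene, where the signal was 8.18 and 10.3 in the libraries. Smyd1, a muscle methyltransferase gene outside this class, faces Cd8b1 at 555 bp, with no listed peak in either library, and was added after its values were seen. Some protein-coding transcripts of Smyd1 start 59952 to 60001 bp farther into the gene. There the signal was 0.814 in replicate 1 (percentile 54.8) and 1.37 in replicate 2 (percentile 86.8). At 555 of 733 loci (75.7%) both gene records began at the start of a protein-coding transcript.

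Pairs without a listed peak had a lower CpG content. The 5 closest of the 33 were Best1/Rab3il1 (36 bp), 4930430F08Rik/1700017N19Rik (61 bp), Il11/Tmem190 (78 bp), Ccnt1/4930415O20Rik (81 bp) and Patl2/Terb2 (83 bp). The 33 loci had a median CpG observed over expected of 0.285, against 0.782 at divergent loci with a shared peak. For Ndufa5/Asb15, where Ndufa5 encodes a subunit of respiratory complex I, the nearest peak lay 353 bp from a start in replicate 1 and 273 bp in replicate 2, just beyond the window, at percentiles 88.6 and 98.3. A peak lay within 1 kb of either start at 5 of the 33 pairs in replicate 1 and at 6 in replicate 2. Among pairs with a peak in 1 library, the strongest were N4bp3/D930048N14Rik (percentile 93.6 in replicate 2), Stap2/Mpnd (86.0) and Nisch/Sema3g (81.3).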

How the data were processed

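Positions are on mm10, per the labels. The README files deposited by the authors derive each peak list from that library's own alignments. No source used here names the aligner, the peak caller or their versions. The authors gave each peak a signal value (scale not stated), used within a library only. A deposited file of cut rate segments held a column treated here as a p-value after correction (false discovery rate). The deposited footprints held a p-value of 0.01 in every row. Each library had 2 peak lists, and the longer was used. Some peaks overlapped an earlier peak of their own list (1692 in replicate 1, 1656 in replicate 2), so covered bases were counted once. A percentile is a peak's rank by signal in its list. Promoters came from GENCODE M21 gene records, and base composition and motifs from RefSeq GRCm38.p6, the same build.

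The members and gene lists were chosen with earlier results of these data known, and regions are not replicates, so no test over regions was made. Named by rule were textbook pairs that meet the definition, the 5 strongest peaks by mean percentile, the 3 longest, 3 most footprinted and 3 weakest, the 5 closest pairs without a peak, the 3 strongest in 1 library, pairs with a muscle gene, and the best of each spacing class. The CCAAT count, the values at the limits of the rule and the transcript starts of muscle genes were added after values had been seen. Functions were tested on simulated data. Tools were matplotlib 3.10.9, pysam 0.24.0, scipy 1.17.1, pandas 2.3.3 and numpy 2.4.6 under Python 3.11.15.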

Additional observations from a re-analysis of the deposited data

How the results depend on the processing

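Pairs had shared peaks more often than single promoters, and more signal and higher rank, under every alternative run. Footprints were also denser at pairs under every alternative, but none of these compared peaks of like signal. Within quintiles of signal they were mostly not denser, as given above. The alternatives numbered 12 for the share, 14 for footprint density and 13 for each other result. The rank difference was 2.28 to 6.20 points against 3.62. Its spread between libraries (SD 3.23) is nearly as large as the value, so staying within that spread shows little. The difference in share, 45.6 points, was 38.7 to 45.2 with 1 library left out and 51.7 without the 200 bp extension. Without the extension a single promoter is its start alone, while a pair keeps the span between its starts. The difference in share was 40.1 with the 5′ ends of all protein-coding transcripts and 12.3 in CpG-rich promoters. The signal ratio, 1.45, moved by more than its small spread under all of its alternatives. It was 1.46 to 1.84 with 1 library left out, 1.296 with the stronger 50% of each list, 1.31 with the shorter peak list, 1.43 with an overlap of at least 50%, 1.449 without the extension, 1.481 with pairs at most 500 bp apart, 1.56 with all transcripts and 1.295 in CpG-rich promoters. It was 1.483 against single promoters without a noncoding head-to-head start and 1.4803 without histone pairs. Against single promoters without an overlapping coding start it was 1.465, and with the strongest peak of each promoter 1.59; both alternatives were chosen after seeing the data. The difference in open length, 0 bp, was -4.25 bp with the stronger 50%, 10 bp with all transcripts and -10 bp in CpG-rich promoters. The difference in footprint density, 1.83 per kb, was 1.25 to 2.78 with 1 library left out, 1.24 with the stronger 50%, 1.099 with the shorter list, 1.34 with all transcripts, 1.36 in CpG-rich promoters, 2.295 with the strongest peak of each promoter and 2.5 in windows of 400 bp. The cause of these shifts was not tested. No paired analysis was possible because there is 1 group. With 2 libraries of unknown depth and lists of unequal length, percentiles cannot be compared between libraries, and a promoter without a listed peak is not shown to be closed.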
